A study of Mus musculus with 12 samples.

Results

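Described here are 10 genes that encode the structural proteins of the synaptonemal complex and of meiotic cohesin. They are Sycp1 (ENSMUSG00000027855), Sycp2 (ENSMUSG00000060445), Sycp3 (ENSMUSG00000020059), Syce1 (ENSMUSG00000025480), Syce2 (ENSMUSG00000003824), Tex12 (ENSMUSG00000032065), Hormad1 (ENSMUSG00000028109), Rec8 (ENSMUSG00000002324), Smc1b (ENSMUSG00000022432) and Stag3 (ENSMUSG00000036928). These are 10 of the 20345 Ensembl genes in the deposited table, chosen by gene identity, with no measured value in the rule. The choice was nonetheless made with earlier results of these data known. The table lists Ensembl IDs without names. The symbols came with the list of IDs and were not checked against the table, because the reference gene table used here holds no Ensembl IDs.

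The study sequenced RNA that co-purified with MIWI, together with the starting RNA (input), from mouse late spermatocytes after removal of ribosomal RNA. MIWI (Piwil1) is the PIWI-clade Argonaute protein that carries pachytene piRNAs, small RNAs made in spermatocytes and early spermatids. The 3 genotypes were Miwi +/-, with 1 functional and 1 null allele, Miwi -/-, with no functional allele, and Miwi ADH/-, with a null allele and the ADH allele, described in earlier studies as a substitution in the slicer site through which PIWI proteins cleave target RNA. All 3 genotypes thus carry at least 1 null allele, and the immunoprecipitation (IP) from Miwi -/- is the background of the antibody. Strain and age are not known here, and the labels' protocols allow for whole testes as well as sorted cells without saying which was used for which sample.

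The labels name 12 samples, 2 per combination of genotype and IP or input, but each combination has a single column of values. The unit is RPKM, the reads of a gene divided by its length in kilobases and by the column's total in units of 1000000 reads. There is therefore no replicate value, and no comparison below has a test. Whether the 2 samples came from separate animals is not stated, nor whether a column holds 1 of them or both. The recovered reads in listed genes ranged from 761525 in the Miwi -/- IP to 3918947 in the Miwi +/- input. The intervals given are exact 95% counting intervals, which compare these columns rather than the genotypes. They hold the counting error of reads and nothing else, and reads copied by PCR are not separate molecules. A gene counts as higher or lower where a difference of log2(RPKM + 1) reached 2-fold. Background shares are over the 12246 genes kept by a filter, which asked for 1 RPKM or more in 2 or more columns. All 10 genes passed this filter. Levels of Piwil1 and of cell type markers are not reported here, since no table at hand pairs their symbols with the IDs, so the labelled genotypes and cell type were not checked.

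The synaptonemal complex is the protein zipper that joins homologous chromosomes along their length in meiotic prophase. Sycp2 and Sycp3 build its lateral elements on the chromosome axes, Sycp1 forms the transverse filaments that bridge them, and Syce1, Syce2 and Tex12 form the central element where the filaments meet. Hormad1 marks axes that have not yet synapsed. Beneath the axis lies cohesin, the ring that holds sister chromatids together, in which meiotic cells use Rec8, Smc1b and Stag3 in place of mitotic subunits. The complex is assembled as homologues pair, is complete in pachytene spermatocytes and is taken apart in diplotene. Whether these transcripts mark the cell stage sampled was not checked.

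Promoter windows of RefSeq (build GRCm38.p6, from 250 bases before to 50 bases after a transcript start) were at hand for all 10 genes, in 12 windows. Printed here are those of Rec8 and Syce2, the 2 genes whose input RNA was at least 2-fold lower in Miwi -/-, and, beside them, those of Sycp1 and Sycp3, whose input RNA was not. For Syce2 the second of its 2 windows is shown, and the first holds none of the 4 motifs named next. Capitals mark every match, on either strand, to 4 motifs: CACGTG (the E-box of MGA and its partner MAX), GGCGGGAA (E2F factors), CNCCTCAG (STRA8, the inducer of meiosis) and AACNGTT (MYB factors, whose member MYBL1 is active in pachytene spermatocytes).
Rec8: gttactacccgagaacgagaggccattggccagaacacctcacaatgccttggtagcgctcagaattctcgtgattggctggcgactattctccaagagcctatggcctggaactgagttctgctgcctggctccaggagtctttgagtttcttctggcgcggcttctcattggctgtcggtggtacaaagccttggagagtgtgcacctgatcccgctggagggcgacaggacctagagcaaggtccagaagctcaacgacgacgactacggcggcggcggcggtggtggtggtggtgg
Syce2: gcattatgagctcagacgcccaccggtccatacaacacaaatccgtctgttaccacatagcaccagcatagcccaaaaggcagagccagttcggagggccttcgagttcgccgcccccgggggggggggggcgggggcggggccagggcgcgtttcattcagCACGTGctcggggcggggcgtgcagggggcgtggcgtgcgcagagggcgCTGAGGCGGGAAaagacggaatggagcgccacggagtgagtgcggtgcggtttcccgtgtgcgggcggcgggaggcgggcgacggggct
Sycp1: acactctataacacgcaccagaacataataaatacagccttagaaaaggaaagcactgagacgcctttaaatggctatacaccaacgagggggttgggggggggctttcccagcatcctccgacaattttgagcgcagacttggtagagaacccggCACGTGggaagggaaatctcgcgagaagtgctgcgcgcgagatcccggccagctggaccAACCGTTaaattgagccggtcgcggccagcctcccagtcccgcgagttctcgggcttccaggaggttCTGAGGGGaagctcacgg
Sycp3: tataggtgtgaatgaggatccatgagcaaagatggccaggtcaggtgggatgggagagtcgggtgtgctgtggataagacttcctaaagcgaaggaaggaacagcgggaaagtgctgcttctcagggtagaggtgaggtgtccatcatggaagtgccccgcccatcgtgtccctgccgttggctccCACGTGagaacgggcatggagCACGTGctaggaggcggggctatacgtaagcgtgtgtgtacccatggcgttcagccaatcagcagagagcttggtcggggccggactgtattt

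These windows lie at chr14:55617916-55618215 (Rec8, plus strand), chr8:84872008-84872307 (Syce2, plus strand), chr3:102936051-102936350 (Sycp1, minus strand) and chr10:88459337-88459636 (Sycp3, plus strand). CACGTG occurred in a window of 6 of the 10 genes (Sycp1, Sycp3, Syce2, Tex12, Hormad1 and Stag3), and 8.09% of the 27025 genes with a window hold it. GGCGGGAA occurred in 3 (Syce2, Tex12 and Hormad1), against 2.52% of all genes. CNCCTCAG was found in Sycp1, Syce2 and Tex12, against 9.12% of all genes, and AACNGTT in Sycp1 alone of the 10, against 5.01%. All matches of Syce2 lie in the second of its windows. There the CNCCTCAG match, on the minus strand, runs into the GGCGGGAA match, so they share bases. The Rec8 window holds none of the 4 motifs, which also holds for the windows of Sycp2, Syce1 and Smc1b. The 2 genes that were lower in the Miwi -/- input thus do not share a match to these 4 motifs. Whether promoter sequence bears on their input levels was not tested. A match describes letters in the window and no bound factor, and the 4 motifs were taken from 14 searched, with the matches in view.

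Input RNA of the Miwi +/- cells, which carry functional MIWI, is described first, as levels per gene length. Syce1, a central element protein, had 293 RPKM there and stood above 98.6% of the kept genes. It was followed by the cohesin subunit Stag3 with 180 RPKM, the lateral element genes Sycp3 with 166 RPKM and Sycp2 with 135 RPKM, and the axis gene Hormad1 with 49.4 RPKM. Next came the cohesin subunit Smc1b with 45.0 RPKM, the transverse filament gene Sycp1 with 38.1 RPKM, and the central element genes Tex12 with 24.4 RPKM and Syce2 with 22.0 RPKM. Rec8, the kleisin that closes the meiotic cohesin ring, was the lowest of the 10, at 11.4 RPKM, above 59.8% of the kept genes. The counting intervals of Stag3 and Sycp3, of Hormad1 and Smc1b, and of Tex12 and Syce2 overlapped, so the order within these pairs is not resolved. Partners of 1 complex thus differed in RNA level: Stag3 stood at 180 RPKM and Rec8 at 11.4 RPKM in the same column. The median of the 10 genes was 47.2 RPKM, against 7.37 RPKM for all kept genes.

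**Figure D1:**
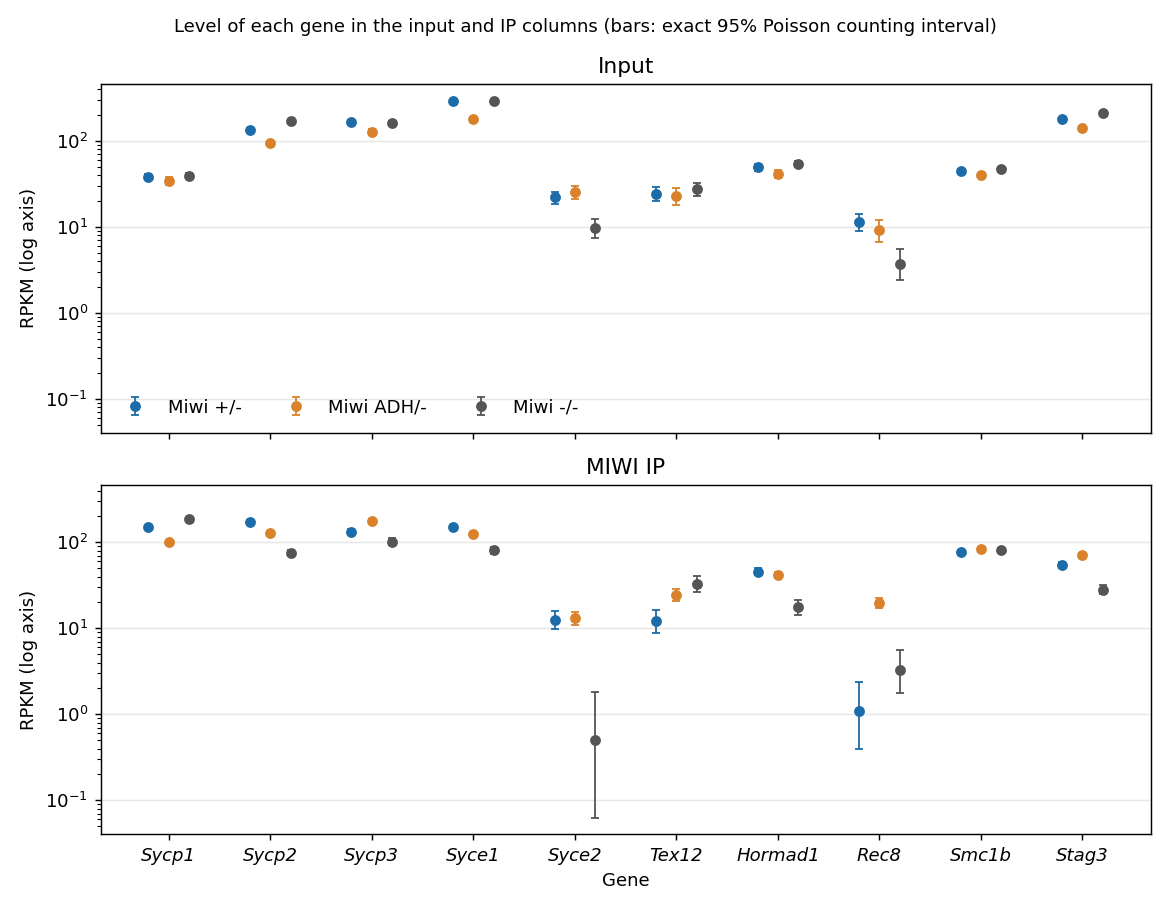
RPKM of each of the 10 genes on a log axis, in the 3 inputs (upper panel) and the 3 MIWI IPs (lower panel), with colours for the genotypes and bars for exact 95% Poisson counting intervals of single columns. Syce2 and Rec8 are the lowest points of the Miwi -/- column in both panels, and Rec8 stands at 1.08 RPKM in the Miwi +/- IP, against 19.8 RPKM in the Miwi ADH/- IP.

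Where MIWI is absent, Syce2 and Rec8 had lower input levels than in Miwi +/-, while the other 8 genes lay between 0.970 and 1.27 times that level. Syce2 had 22.0 RPKM for Miwi +/-, 25.4 for Miwi ADH/- and 9.73 for Miwi -/-. The Miwi -/- level was 2.26-fold below that of Miwi +/- (interval 1.68 to 3.07, from 65 and 155 reads), a log2 difference of -1.10. Rec8 had 11.4 RPKM for Miwi +/-, 9.11 for Miwi ADH/- and 3.74 for Miwi -/-. Its Miwi -/- level was 3.03-fold below that of Miwi +/- (1.92 to 4.96, from 25 and 80 reads), a log2 difference of -1.38. For both genes the Miwi -/- input is the low one, and its interval does not reach those of the other inputs. In this comparison 0 of the 10 genes were higher and 2 lower, where 4.47% of all kept genes were higher and 10.6% lower. With only 10 genes, a count of 2 is not read as set apart from that share. Syce2 stood above 9.41% and Rec8 above 6.95% of all kept genes in this difference. Syce2 also overlaps the protein-coding gene Gcdh, as taken up below. The median of the 10 genes was 0.04 and that of all kept genes -0.02. In bulk RNA, fewer cells of a type and less RNA per cell cannot be told apart, and the cell mixture of the inputs was not tested.

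The other 8 genes differed little between these inputs. Sycp2 had 135 RPKM in Miwi +/- and 170.4 in Miwi -/-, a ratio of 1.27 (1.20 to 1.34), and Stag3 had 180 and 212, a ratio of 1.18 (1.13 to 1.24). These are the 2 genes whose interval lay above 1, and the share of all kept genes with such an interval was not counted. Sycp1 (38.1 and 38.7 RPKM), Sycp3 (166 and 161), Syce1 (293 and 288), Tex12 (24.4 and 27.4), Hormad1 (49.4 and 54.2) and Smc1b (45.0 and 46.8) had intervals that include 1. For Syce1, the deepest of them with 3206 and 2995 reads, the interval of the ratio was 0.937 to 1.04.

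With the catalytic mutant, none of the 10 input levels was 2-fold away from Miwi +/-, where 7.8% of all kept genes were higher and 7.42% lower, but 9 of the 10 were below it. The intervals of 6 genes lay below 1. Syce1 had 182 RPKM in Miwi ADH/- against 293, a ratio of 0.622 (0.584 to 0.661). Sycp2 had 94.7 against 135, a ratio of 0.704 (0.657 to 0.753), and Sycp3 had 127 against 166, a ratio of 0.766 (0.700 to 0.838). Stag3 had 141 against 180, a ratio of 0.783 (0.739 to 0.830). Hormad1 (41.0 against 49.4 RPKM) and Smc1b (39.9 against 45.0) made up the 6, with ratios of 0.831 and 0.887. The median log2 difference of the 10 genes was -0.28, against -0.16 for all kept genes. The median of all genes was thus also below 0. How many of all kept genes lay below Miwi +/-, or had an interval below 1, was not counted. In this difference the 10 genes stood above 17.9% (Syce1) to 71.0% (Syce2) of all kept genes. Measured from the median of all genes, Syce2, Tex12 and Sycp1 lay above it and the other 7 below. With columns scaled to equal sums, Syce2 was again above 0 and the other 9 below.

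**Figure D2:**
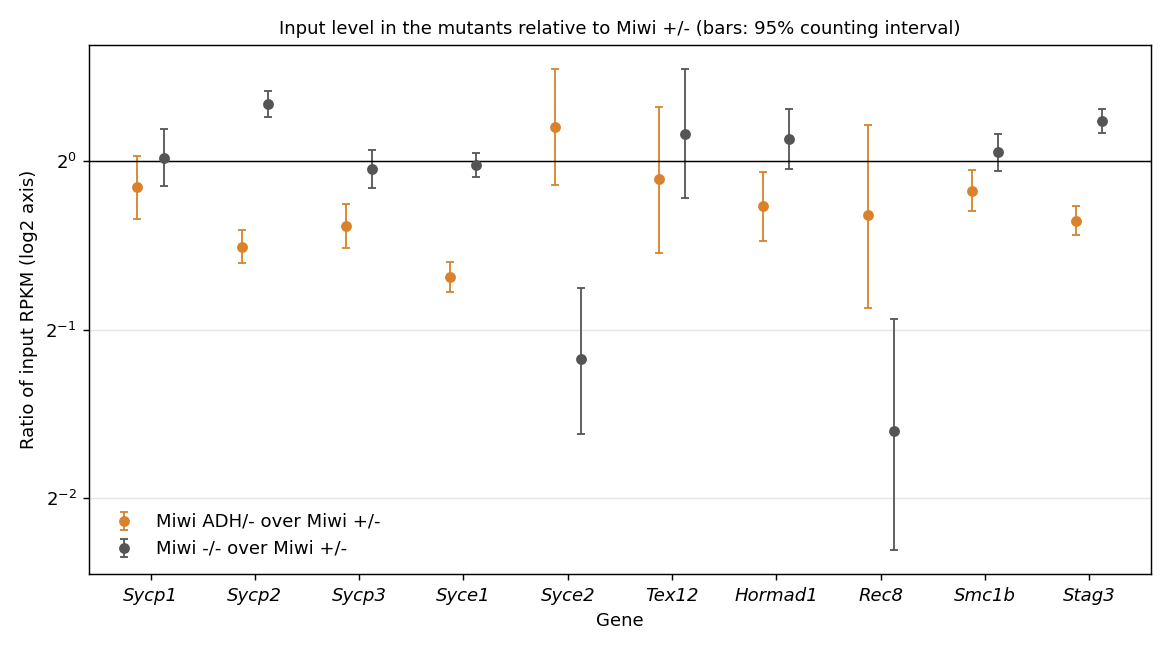
Ratio of the input RPKM in Miwi ADH/- (orange) and Miwi -/- (grey) to that in Miwi +/-, on a log2 axis, with 95% counting intervals. Syce2 and Rec8 lie at 0.442 and 0.330 in Miwi -/-, while the other 8 genes lie between 0.970 and 1.27 there, and in Miwi ADH/- the genes lie between 0.622 and 1.15.

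Set against each other, the mutant inputs differed by at least 2-fold for Syce2 and Rec8. Syce2 was 2.61-fold higher in Miwi ADH/- than in Miwi -/- (1.92 to 3.57) and Rec8 2.43-fold higher (1.47 to 4.12). This made 2 of 10 genes higher and 0 lower, where 12.6% of all kept genes were higher and 6.54% lower. This count too is not read as set apart from the share of all genes. The comparison shares the Miwi -/- column with the one above. Sycp2, at 94.7 RPKM in Miwi ADH/- and 170.4 in Miwi -/-, was the farthest in the other direction, with a ratio of 0.556 (0.520 to 0.594).

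In the MIWI IP of Miwi +/-, Sycp1 was higher than in its input, and Rec8 and Stag3 were lower. That is 1 of 10 genes higher and 2 lower, where 4.24% of all kept genes were higher and 40.6% lower. With differences taken from the median of all genes, 15.4% of kept genes were higher and 15.5% lower, and the 10 genes gave 3 higher (Sycp1, Sycp2 and Smc1b) and 1 lower (Rec8). Columns scaled to equal sums gave the same members, with 14.6% and 18.2% of all genes. In the Miwi ADH/- IP, Sycp1, Rec8 and Smc1b were higher and none was lower, where 4.83% and 25% of all kept genes were. Taken from the median these shares were 12% and 13.4%, with the same 3 members higher. With equal sums they were 13.7% and 11.8%, and 5 of the 10 genes were higher (Sycp2 and Sycp3 in addition). In the Miwi -/- background IP, Sycp1 was higher and 5 genes were lower (Sycp2, Syce1, Syce2, Hormad1 and Stag3), where 3.67% and 60.9% of all kept genes were. From the median, these shares became 23.6% and 25%, with equal sums 16.7% and 36%, and in both cases 4 of the genes were higher (Sycp1, Tex12, Rec8 and Smc1b) and 2 lower (Syce2 and Stag3). The median of the 10 genes was -0.53, 0.27 and -0.91 in these IPs, in the order given, against -0.77, -0.41 and -1.37 for all kept genes. Together the 10 genes took 0.554%, 0.428% and 0.677% of the listed reads in these IPs. In the matching inputs they took 0.330%, 0.271% and 0.350%.

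**Figure D3:**
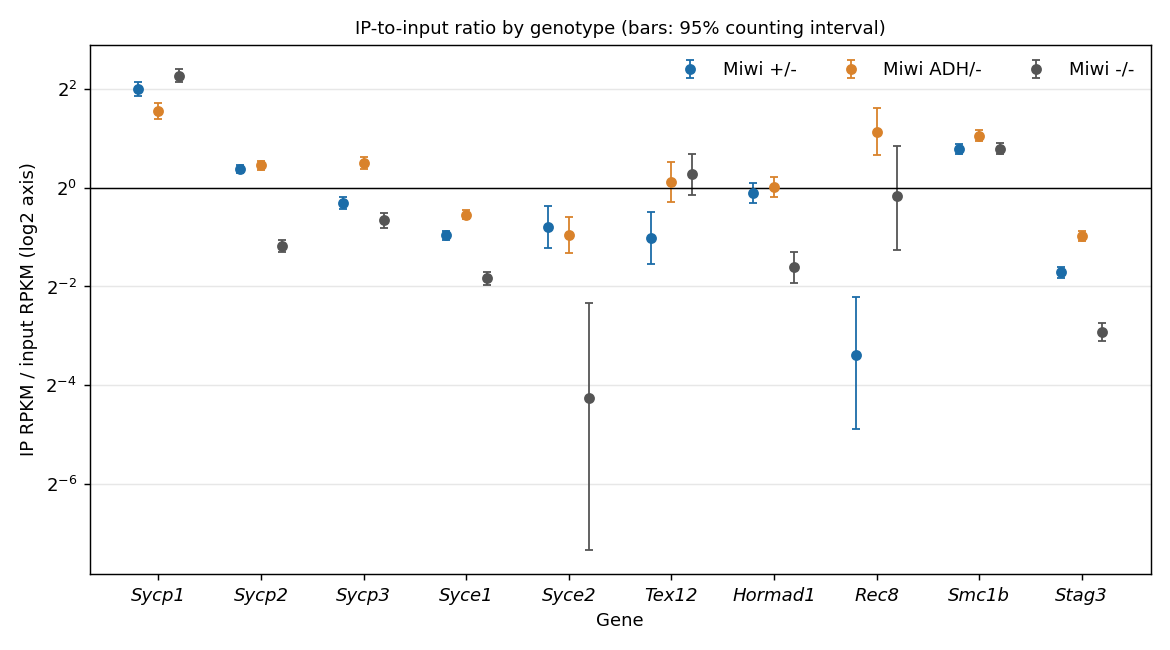
IP-to-input ratio of RPKM on a log2 axis for each gene in Miwi +/- (blue), Miwi ADH/- (orange) and Miwi -/- (grey), with 95% counting intervals, and a line at 1. Sycp1 and Smc1b lie above 1 in all 3 genotypes, Syce1, Syce2 and Stag3 lie below it in all 3, and Rec8 runs from 0.0954 in Miwi +/- to 2.17 in Miwi ADH/-.

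Sycp1, the transverse filament gene, was recovered above its input in every IP, most of all where MIWI is absent. Its IP levels were 152 RPKM for Miwi +/-, 99.9 for Miwi ADH/- and 186 for Miwi -/-, against 34.2 to 38.7 RPKM in the inputs. The IP-to-input ratios were 3.98 (3.63 to 4.37), 2.92 (2.62 to 3.26) and 4.80 (4.36 to 5.29), so the background IP had the highest ratio, with an interval that overlaps that of Miwi +/- at the edge. In log2 terms these are 1.96, 1.52 and 2.23, above 99.2%, 98.5% and 99.4% of all kept genes. Sycp1 was the most abundant of the 10 genes in the background IP, while it was seventh of 10 in the inputs. Relative to Miwi -/-, its enrichment was -0.27 in Miwi +/- and -0.72 in Miwi ADH/-.

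Smc1b, the meiotic SMC subunit of cohesin, was the other gene above its input in all 3 genotypes. Its IP levels were 77.2, 82.8 and 80.4 RPKM in Miwi +/-, Miwi ADH/- and Miwi -/-, the narrowest range of the 10 genes, with inputs of 45.0, 39.9 and 46.8 RPKM. The ratios were 1.71 (1.60 to 1.84), 2.07 (1.92 to 2.23) and 1.72 (1.59 to 1.86). On the deposited scale the intervals of Miwi +/- and the background IP overlapped, and the enrichment between them was -0.01. It was -0.67 relative to the median of all genes and -0.71 with equal sums. The log2 differences of Sycp1 and Smc1b from input kept their sign under both other scalings in every genotype.

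Stag3, the cohesin subunit with the second highest input, was recovered below its input in all 3 IPs, on every scaling tried. It had 54.7, 71.2 and 28.1 RPKM in the IPs of Miwi +/-, Miwi ADH/- and Miwi -/-, against 180, 141 and 212 in the inputs. The ratios were 0.304 (0.281 to 0.330), 0.505 (0.473 to 0.540) and 0.132 (0.116 to 0.149), whose intervals do not overlap. The Miwi ADH/- value, a log2 difference of -0.97, stayed short of 2-fold.

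Rec8 had 1.08 RPKM in the Miwi +/- IP, 19.8 in the Miwi ADH/- IP and 3.31 in the Miwi -/- IP, from 6, 197 and 13 reads. Its inputs had 11.4, 9.11 and 3.74 RPKM. In Miwi +/- the IP was 10.5-fold below the input (4.61 to 29.4), and in Miwi ADH/- it was 2.17-fold above it (1.57 to 3.06). In the background IP the ratio was 0.885 (0.416 to 1.80), which includes 1. The intervals of Miwi +/- and Miwi ADH/- are far apart, and the 2 IP columns alone differed 18.3-fold (8.25 to 50.4). The signs in Miwi +/- and Miwi ADH/- held under both other scalings, whereas the Miwi -/- value of -0.14 turned to 1.24 and 1.19. In the RefSeq annotation no other gene overlaps Rec8.

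Sycp2 and Sycp3, the lateral element genes, differed between IPs. Sycp2 had 174, 129 and 75.1 RPKM in the IPs of Miwi +/-, Miwi ADH/- and Miwi -/-, with ratios to input of 1.29 (1.22 to 1.37), 1.36 (1.28 to 1.46) and 0.440 (0.406 to 0.477). The background IP is the low one, by 2.32-fold against Miwi +/- (2.14 to 2.52). The median of all kept genes was lower there too, at 1.62 RPKM against 4.14 in the Miwi +/- IP. The log2 difference of Sycp2 from input in the Miwi -/- IP, -1.17, turned positive under the other scalings, to 0.20 and 0.44. Sycp3 had 133, 178 and 102 RPKM in the IPs, with ratios of 0.804 (0.736 to 0.876), 1.40 (1.29 to 1.53) and 0.632 (0.567 to 0.705). Its values of -0.31 in Miwi +/- and -0.66 in Miwi -/- likewise turned positive under the other scalings, to 0.46 and 0.72 relative to the median and 0.60 and 0.96 with equal sums.

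Among the central element genes, Syce1 and Syce2 were recovered below input on the deposited scale, as was the median of all kept genes. Tex12 was not uniformly so. Syce1 had 150.0, 125 and 80.7 RPKM in the IPs of Miwi +/-, Miwi ADH/- and Miwi -/-, with ratios of 0.512 (0.480 to 0.547), 0.685 (0.640 to 0.734) and 0.280 (0.254 to 0.308). These values stood above 42.3%, 43.7% and 38.0% of all kept genes. The middle value changed sign with columns scaled to equal sums (log2 0.07). The log2 value in Miwi +/-, -0.96, came to -0.19 relative to the median and -0.05 with equal sums. That in Miwi -/-, -1.83, came to -0.45 and -0.21. Syce2 had 12.6, 13.1 and 0.510 RPKM, with ratios of 0.575 (0.427 to 0.767), 0.515 (0.401 to 0.661) and 0.0524 (0.00621 to 0.197). The last rests on 2 reads. Its value in Miwi +/-, -0.75, came to 0.02 relative to the median and 0.11 with equal sums. Tex12, a partner of Syce2 in the central element, had 12.1, 24.5 and 33.0 RPKM, with ratios of 0.495 (0.341 to 0.708), 1.08 (0.816 to 1.43) and 1.21 (0.902 to 1.61). Its lowest IP was thus that of Miwi +/-, where that of Syce2 was the Miwi -/- IP. The log2 value of Tex12 in Miwi +/-, -0.96, came to -0.19 relative to the median and -0.09 with equal sums. In Miwi ADH/- its value of 0.10 came to 0.51 and 0.70. In the Miwi -/- IP its value of 0.26 came to 1.63 and 1.85, past 2-fold. In the RefSeq annotation Syce2 overlaps Gcdh and Tex12 overlaps Il18. Sycp3, Smc1b and Stag3 also overlap other protein-coding genes, and how reads in shared stretches were assigned, and whether strand was used, is not stated in the labels or the file.

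Hormad1, the axis gene, had 45.8, 41.3 and 17.7 RPKM in the IPs of Miwi +/-, Miwi ADH/- and Miwi -/-. On the deposited scale the first 2 equalled input within counting error, with ratios of 0.927 (0.810 to 1.06) and 1.01 (0.878 to 1.16). Their log2 values, -0.11 and 0.01, came to 0.66 and 0.42 relative to the median and 0.79 and 0.62 with equal sums. The background IP had a ratio of 0.326 (0.262 to 0.404). The log2 value of the background IP, -1.56, became -0.19 relative to the median and 0.01 with equal sums.

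Enrichment over the background IP, the difference of IP minus input between a genotype and Miwi -/-, is taken next. In Miwi +/-, 4 of 10 genes were higher (Syce2 by 2.08 on the log2 scale, Sycp2 by 1.54, Hormad1 by 1.46 and Stag3 by 1.18) and 2 lower (Tex12 at -1.22 and Rec8 at -2.43), where 39.3% of all kept genes were higher and 9.56% lower. Relative to the median, 21.4% and 20.1% were, and with equal sums 31.4% and 15.2%. On both of these scales Syce2 alone of the 10 was higher, and Tex12 and Rec8 were lower. The 4 of 10 higher genes on the deposited scale are near the background, and the scalings do not keep that count. The value of Syce2 rests on 2 reads in the Miwi -/- IP and came to 3.22 with a pseudocount of 0.1, and Sycp3, at 0.34 as deposited, came to -0.33 and -0.36 under the other scalings. The median of the 10 genes was 0.60, against 0.67 for all kept genes. Rec8 stood above 1.71% of them.

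In Miwi ADH/-, 7 of 10 genes were higher than the background by this measure and 0 lower, where 51.9% of all kept genes were higher and 7.3% lower. The 7 were Syce2 (1.92), Stag3 (1.90), Sycp2 (1.62), Hormad1 (1.57), Syce1 (1.28), Rec8 (1.18) and Sycp3 (1.14). With a pseudocount of 0.1, Syce2 came to 3.06. Sycp1, Tex12 and Smc1b, at -0.72, -0.16 and 0.26, did not reach 2-fold, and Smc1b turned to -0.79 relative to the median and -0.74 with equal sums. The median of the 10 was 1.23, against 1.06 for all kept genes. Relative to that median 20.1% of all genes were higher and 21.7% lower, with 0 of the 10 higher and 2 lower (Sycp1 and Tex12). With equal sums, 35.2% and 13.5% were, with Syce2 higher and the same 2 genes lower. Both enrichments subtract the same Miwi -/- columns, whose IP is the shallowest.

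Between the catalytic mutant and Miwi +/-, the enrichment of 2 of 10 genes was higher in Miwi ADH/- and of 0 lower, where 20.5% of all kept genes were higher and 7.56% lower. The count of 2 higher genes is near that background share of 20.5%. Rec8 differed by 3.61 on the log2 scale, above 99.7% of all kept genes, by 3.23 relative to their median, and by 4.39 with a pseudocount of 0.1. Tex12 differed by 1.06, above 81.7% of all kept genes. It had 24.5 RPKM in the Miwi ADH/- IP against 12.1 in that of Miwi +/-, with nearly equal inputs. Its difference was 0.68 relative to the median and 0.79 with equal sums, both short of 2-fold. The remaining 8 genes lay between -0.45 (Sycp1) and 0.80 (Sycp3), of which Sycp2 (0.08), Hormad1 (0.12) and Smc1b (0.27) turned negative under both other scalings, and the median of the 10 was 0.34, against 0.38 for all kept genes. Relative to the median, 10.6% of all genes were higher and 13.4% lower, and of the 10 genes Rec8 alone was higher.

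**Figure D4:**
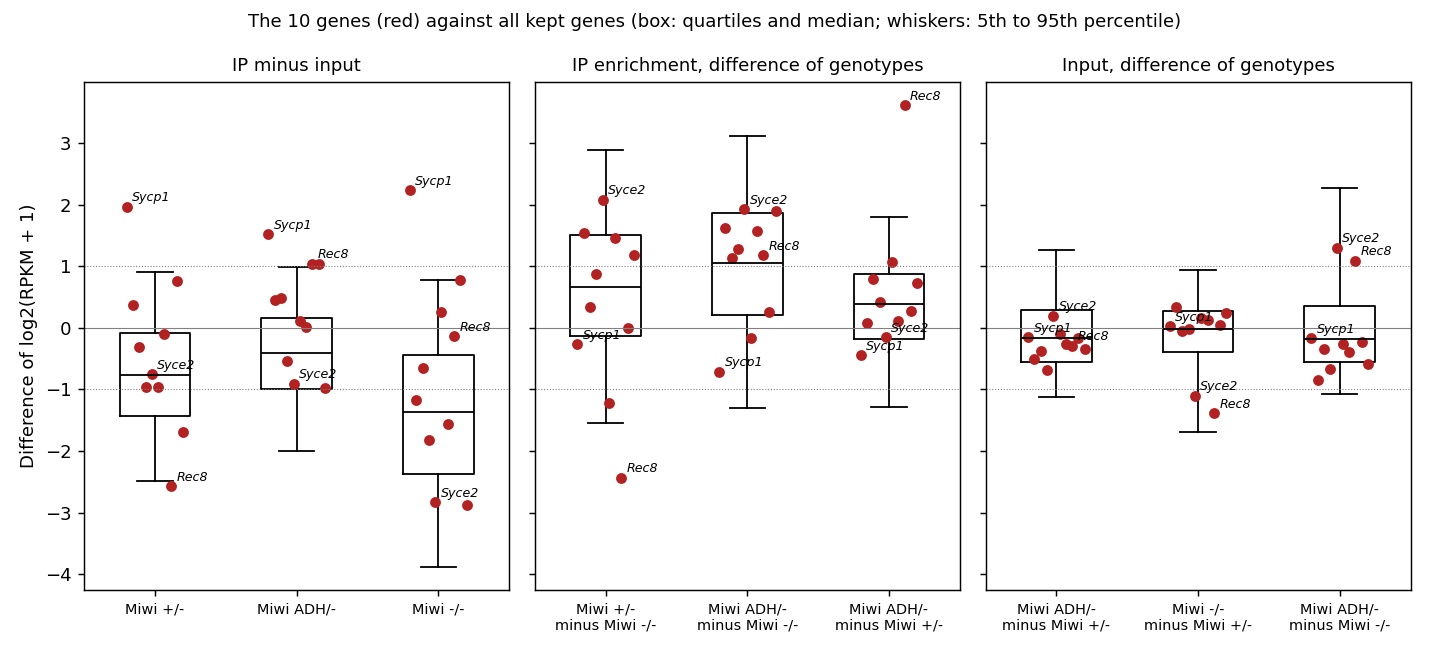
Differences of log2(RPKM + 1) for the 10 genes (red points, with Sycp1, Syce2 and Rec8 named) over boxes of all 12246 kept genes, whose whiskers span the 5th to 95th percentile. In the left panel Sycp1 lies above the whisker in each genotype, and in the middle panel Rec8 lies below it for Miwi +/- minus Miwi -/- and above it for Miwi ADH/- minus Miwi +/-.

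Gene length, which the steps of the RPKM values give up to a common factor, differed among the 10: Smc1b was the longest, at 1.66 times Sycp2, and Tex12 the shortest, at 0.254 times Sycp2. Across the 10 genes, which share the same columns, the Spearman correlation of length with IP minus input was 0.53 for Miwi +/-, 0.055 for Miwi ADH/- and 0.0061 for the background IP. Values of like size occurred between inputs, where no IP enters. There it was 0.50 for Miwi -/- minus Miwi +/-, -0.36 for Miwi ADH/- minus Miwi +/- and -0.45 for Miwi ADH/- minus Miwi -/-. For the enrichments it was 0.31 (Miwi +/- minus Miwi -/-), 0.091 (Miwi ADH/- minus Miwi -/-) and -0.48 (Miwi ADH/- minus Miwi +/-). Rec8 and Syce2 were nearly equal in length, at 0.386 and 0.387 times Sycp2. Their ratios in the Miwi +/- IP were 0.0954 and 0.575, from 6 and 70 IP reads. This pair was picked from the 10 genes. The relation over all kept genes was not computed, and an effect of length was not tested.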

How the data were processed

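Per the file headers, the authors deposited RPKM. The header names this unit for the Miwi +/- columns only, and it was assumed for the others, whose values for a gene follow the same steps. Per the submitters' processing notes, TopHat and Bowtie were used with the mouse build mm9. Their versions, the counting tool and the annotation are not stated. No column was left out.

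The worth of 1 read in RPKM is fixed by gene length and column depth, so reads can be recovered. Relative depths came from the commonest exact ratio between columns, and reads from the largest step that makes a gene's values whole within 0.002 reads plus 1e-07 of the read number, which held for 100% of genes. The 2893 genes with a value in 1 column were set to 1 read without this check and are counted in the 100%. If all 6 read numbers of a gene share a factor, the reads are too low by it and the intervals too wide. The recovery and the count by size were tested on simulated data.

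Differences are of log2(RPKM + 1), with a pseudocount of 1, which understates changes of low genes. Intervals are Clopper-Pearson, conditional on the summed reads, or Poisson for a level. The planned fit across replicate columns could not be run on 1 column per group. All 10 genes were named by rule; the members, lists and motifs were chosen with earlier results of these data known. A list of 22 further axis and cohesin genes and the cell type markers gave no values, because their symbols could not be matched to the IDs. Alternatives were a pseudocount of 0.1, no filter, differences from the median of all kept genes, and equal column sums. Python 3.11.15, pandas 2.3.3 and scipy 1.17.1 were used.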

Additional observations from a re-analysis of the deposited data

Results flagged for a closer look

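Rec8, Sycp2 and Sycp3 lay on opposite sides of their input in a pair of genotypes, with both counting intervals excluding a ratio of 1. None of these differences was tested, since each rests on single columns. Rec8 differed by 3.61 on the log2 scale between Miwi ADH/- and Miwi +/-, with IP-to-input ratios of 2.17 and 0.0954, and its sides held relative to the median of all genes (1.45 and -1.80). Sycp2 was lower in Miwi -/- than in Miwi +/- (-1.54) and than in Miwi ADH/- (-1.62), with ratios of 0.440, 1.29 and 1.36. Sycp3 was higher in Miwi ADH/- than in Miwi +/- (0.80) and lower in Miwi -/- than in Miwi ADH/- (-1.14). Relative to the median of all genes, Sycp2 lay at 1.14, 0.85 and 0.20 in Miwi +/-, Miwi ADH/- and Miwi -/-, and Sycp3 at 0.46, 0.89 and 0.72, so neither gene changed sides on that scale.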

How the results depend on the processing

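No paired analysis was possible because the file holds 1 column per group without replicate numbers, and for the same reason no replicate could be left out. A pseudocount of 0.1 RPKM and no filter on low values kept all 18 counts of higher or lower genes within 1.5 times the reported ones, though the smaller pseudocount added Tex12 to the genes lower in the Miwi +/- IP (3 in place of 2). It also moved values that rest on few reads: Syce2 to 3.22 and 3.06 for enrichment of Miwi +/- and Miwi ADH/- over Miwi -/-, and Rec8 to 4.39 for Miwi ADH/- over Miwi +/-. Scaling moved more counts. Relative to the median of all kept genes, the counts became 3 higher and 1 lower for IP minus input in Miwi +/-, 4 higher and 2 lower in Miwi -/-, 1 higher for enrichment of Miwi +/- over Miwi -/-, 0 higher and 2 lower for Miwi ADH/- over Miwi -/-, and 1 higher for Miwi ADH/- over Miwi +/-. With equal column sums they became 3 higher and 1 lower in Miwi +/-, 5 higher in Miwi ADH/-, 4 higher and 2 lower in Miwi -/-, and 1 higher for each of the 3 enrichments, with 2 lower for Miwi ADH/- over Miwi -/-. The other counts, those of the inputs included, stayed within 1.5 times. Where counts moved, the shares of all kept genes moved in the same directions. Relative to the median, the share higher went from 4.24% to 15.4% in the Miwi +/- IP. In the Miwi -/- IP it went from 3.67% to 23.6%. The shares lower there went from 40.6% to 15.5% and from 60.9% to 25%. For enrichment over Miwi -/-, the share higher went from 39.3% to 21.4% in Miwi +/- and from 51.9% to 20.1% in Miwi ADH/-. Of 90 values, 17 changed sign under at least 1 of the scalings. For 2 of them the reported value was past 2-fold: Sycp2 in the Miwi -/- IP (0.20 relative to the median, 0.44 with equal sums) and Hormad1 there (0.011 with equal sums). The other 15 were under 2-fold as reported, among them Rec8 in the Miwi -/- IP, from -0.14 to 1.24 and 1.19, and Sycp3 there, from -0.66 to 0.72 and 0.96. The 6 reads of Rec8 in the Miwi +/- IP and the 2 of Syce2 in the Miwi -/- IP limit those ratios most.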
